A study of Mus musculus with 4 samples.

Results

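Mitochondrial ribosomal proteins are encoded in the nucleus, made in the cytosol and imported into mitochondria, where they assemble with mitochondrial rRNAs into the mitoribosome. The mitoribosome makes only the few hydrophobic subunits of the respiratory chain and of ATP synthase that mitochondrial DNA encodes. Its large subunit (Mrpl genes) forms peptide bonds and its small subunit (Mrps genes) decodes the message, and each combines proteins with bacterial relatives and proteins specific to mitochondria. The genes described here are those whose symbol starts with Mrpl or Mrps followed by a number and that had at least 20 reads in any library. Of 78 such symbols among 21959 listed genes, 77 met that count. Mrpl53, a protein of the stalk base, was at 0 counts in all 4 libraries and was left out. The 77 genes comprised 50 for the large subunit and 26 for the small subunit. Mrps18a and Mrps30 were counted with the large subunit, where their proteins sit. Mrps36, whose protein is also known as a component of the alpha-ketoglutarate dehydrogenase complex, was put in neither subunit.

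The RNA came from dendritic cells (DCs), which present antigen, and from CD3+ T cells, both isolated from tumours of mice bearing MC38, a mouse colon carcinoma line. Mice were given PBS, the control, or X-Ray+O-IMDQ, a combination of irradiation with a prodrug that the series describes as activated by radiotherapy, and cells were taken 72 h after the second treatment. The labels give no mouse strain, age or number of animals, and no group with X-Ray or O-IMDQ alone. There was 1 labelled library in each of the 4 groups (DC PBS, DC treated, T cell PBS, T cell treated), so the comparisons below set single libraries side by side, say nothing of the spread within a condition, and carry no p-value. Totals ranged from 14056428 counts (treated DCs) to 23797357 (PBS DCs), and the T cell libraries held 18649824 (PBS) and 18463944 (treated). Each ratio is given on the log2 scale after TMM scaling. Its 95% interval is the exact binomial (Clopper-Pearson) interval given the summed count. The interval treats reads as independent and covers counting error only, not the spread between libraries of a condition. Reads copied by PCR and carrying no molecular identifier do not count molecules independently, so the interval may be too narrow even for counting error. A gene is called higher or lower where the ratio is at least 2-fold and the interval excludes equality. A count of 0 is taken as 3 counts, and the ratio is then a working bound. The 95% interval of such a gene reaches somewhat closer to equality than this bound.

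The labelled cell types were checked against marker genes. The 7 listed T cell markers summed to 92.1 and 77.6 CPM (counts scaled to a common library total) in the PBS and treated DC libraries, against 10349.9 and 11025.5 CPM in the PBS and treated T cell libraries, and Cd3e and Cd247 were at 0 in both DC libraries. The other 5 differed between PBS and treated DCs in both directions: Cd3d had 434 and 812 counts and Cd5 1 and 278, while Cd3g had 576 and 1, Lck 607 and 0, and Cd2 574 and 0. The 12 conventional DC markers summed to 82210 CPM in PBS DCs and 14235 CPM in treated DCs, against 646 and 486 CPM in the T cells. Of these, 4 were called higher in treated DCs (Irf8, Clec9a, Zbtb46 and Flt3) and 6 lower: Batf3, Cd209a and the abundant antigen-presentation genes H2-Ab1, H2-Aa, H2-Eb1 and Cd74. Batf3 had 479 counts in PBS DCs and 0 in treated DCs, and Clec9a had 154 and 952. The sum of the DC markers rested largely on H2-Ab1 (49192 CPM in PBS DCs), H2-Eb1 (11102), Cd74 (10707) and H2-Aa (10530). Against T cells in PBS, 9 of the 12 DC markers were called higher in DCs. Zbtb46 was lower there (9 counts in PBS DCs and 120 in PBS T cells), and Irf8 and Flt3 were not called. The 9 macrophage markers were all higher in DC than in T cell libraries, and summed to 7744 CPM in PBS DCs and 1762 CPM in treated DCs, with 0 called higher and 5 called lower in the treated library. Both measured NK cell markers were higher in treated DCs (Klre1 with 137 and 637 counts, Eomes with 0 and 135). Of the neutrophil markers S100a8 (90 and 1009) and Cxcr2 (0 and 246) were higher and Csf3r (436 and 34) lower. Cd79b, a B cell marker, had 986 and 177 counts. Of the epithelial markers Epcam had 219 and 0 counts and Cdh1 662 and 776. Between the T cell libraries 0 of the 7 T cell markers were called. Of 10 measured DC markers 2 were higher in treated T cells and 4 lower, and of 8 macrophage markers 0 and 3 (all genes 18.3% and 25.4%). Adgre1 had 334 and 0 counts in PBS and treated T cells, H2-Aa 1064 and 149, Cd209a 7 and 219, and Cd79b 10 and 137. The DC libraries thus differed in markers of several cell types, as did the T cell libraries. The part of these differences in the results on either cell type was not tested. In such bulk RNA, fewer cells of a type and less RNA per cell cannot be told apart.

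The 77 genes together summed to 9664 CPM in PBS DCs, 12901 CPM in treated DCs, 10035 CPM in PBS T cells and 8235 CPM in treated T cells. Per length, in the deposited FPKM (fragments scaled to gene length and library total), the median member stood at 36.9 in PBS DCs, 21.9 in treated DCs, 37.7 in PBS T cells and 33.3 in treated T cells. The treated DC library thus had the lowest median and the highest sum, 6535 FPKM against 4811 in PBS DCs, 5307 in PBS T cells and 4141 in treated T cells. Its 5 highest members (Mrps21, Mrpl52, Mrpl42, Mrps14 and Mrps33) held 45.9% of the summed FPKM of all members. In the other libraries the 5 highest held 23.4% (PBS DCs), 25.5% (PBS T cells) and 22.9% (treated T cells).

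**Figure D1:**
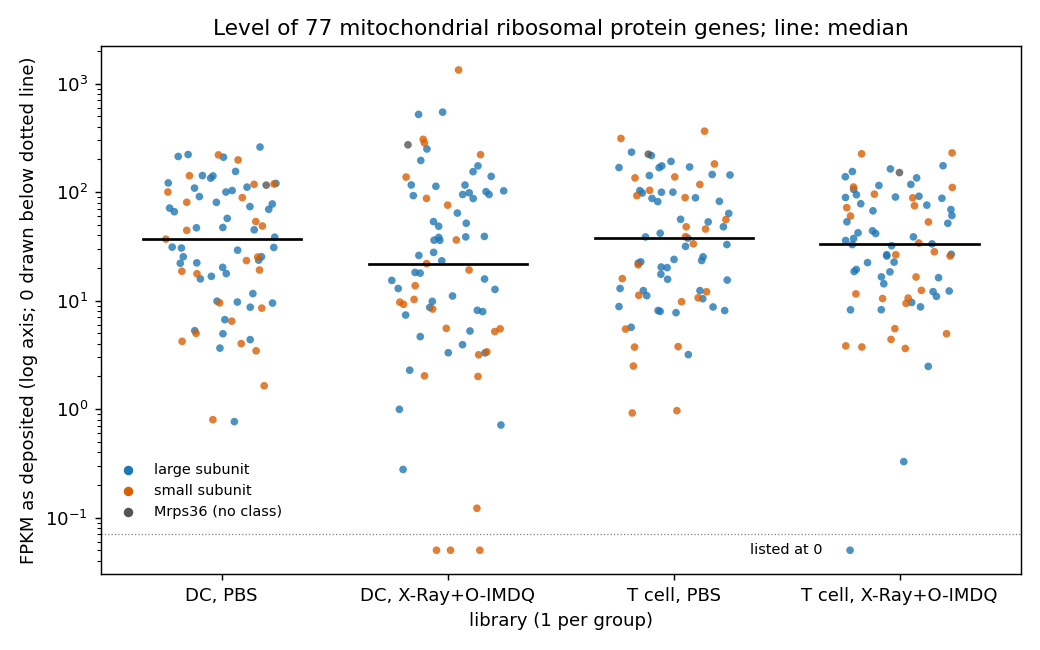
Level of each of the 77 genes in the 4 libraries, in deposited FPKM on a log axis; each point is a gene, coloured by subunit, the horizontal line is the median, and genes listed at 0 are drawn below the dotted line. The treated DC library has the widest range, from 3 genes listed at 0 to Mrps21, with its median at 21.9 against 33.3 to 37.7 in the other libraries.

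The order of the genes by level was much alike in 3 of the libraries. Spearman's rho of FPKM over the 77 genes was 0.96 between PBS and treated T cells, 0.93 between PBS DCs and PBS T cells, and 0.93 between PBS DCs and treated T cells. Over all 11986 genes with at least 20 counts in any library the same pairs gave 0.85, 0.69 and 0.67. Every pair with the treated DC library was lower among the members: 0.71 with PBS DCs, 0.71 with PBS T cells and 0.67 with treated T cells, against 0.66, 0.54 and 0.54 over all genes. These are descriptions across genes, which share libraries and are not replicates. Mrps24 and Mrps21, both with relatives in the bacterial small subunit, and Mrpl55, of the large subunit, were among the most abundant members. Mrps24 stood at 198 FPKM in PBS DCs, 75.9 in treated DCs, 313 in PBS T cells and 230 in treated T cells. Mrpl55 stood at 260, 101, 234 and 155 FPKM in the same order. Mrpl20, the relative of bacterial L20, stood at 142, 250, 175 and 118 FPKM. For Mrps24 and Mrpl55 the treated DC library was the lowest of the 4, and for Mrpl20 it was the highest.

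**Figure D2:**
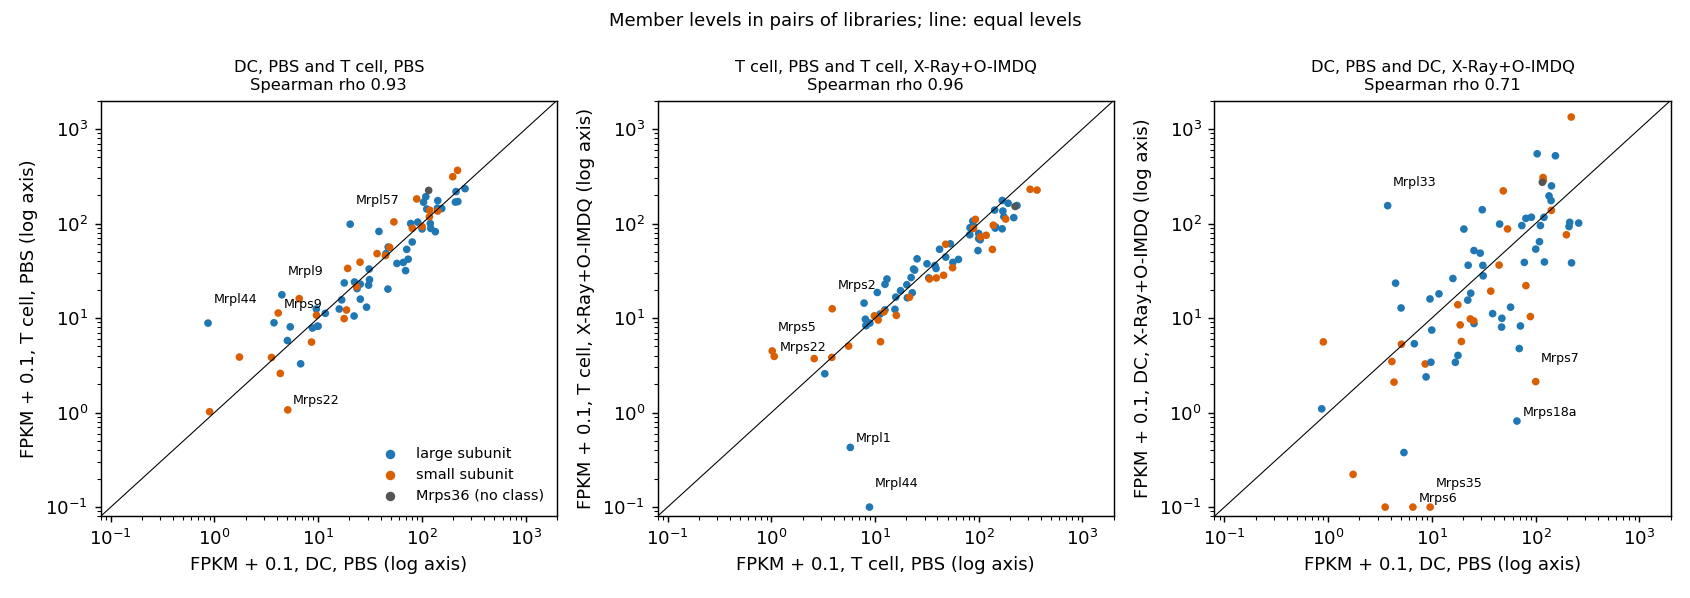
Levels of the 77 genes in 3 pairs of libraries, as FPKM + 0.1 on log axes, with the line of equal levels; each point is a gene, coloured by subunit. Points lie near the line for PBS DCs against PBS T cells (rho 0.93) and for PBS against treated T cells (rho 0.96), and scatter widely for PBS against treated DCs (rho 0.71), where Mrps31, Mrps6 and Mrps35 lie at 0 in the treated library.

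In DCs the members differed in both directions between the treated and the PBS library. Of the 77 genes, 15 (19.5%) were called higher in the treated library, where 30.2% of all 10316 genes tested were, and 31 (40.3%) were called lower, where 41.8% of all genes were; 31 were in neither group. Their median log2 ratio was -0.32, against -0.36 for all genes. The middle 50% of member ratios spanned 2.50 log2 units, against 4.27 for all genes. Among genes with at least 20 counts in both DC libraries these spans were 2.27 and 2.51, with 15 of 73 members (20.5%) higher and 27 (37%) lower (background 32.9% and 26.2%). The place of the lower share against the background therefore differed between these count minimums.

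The gene highest by ratio was Mrpl33, whose protein is the mitochondrial relative of bacterial L33. It had 636 counts in PBS DCs, 15907 in treated DCs, 1204 in PBS T cells and 1184 in treated T cells. Only the treated DC library stood apart, 44.1-fold above PBS DCs (log2 5.46, interval 5.35 to 5.58). Per length Mrpl33 went from 3.65 to 154 FPKM in DCs and stayed at 8.81 and 8.75 FPKM in T cells. The listed gene spans chr5:31754279-31821728 on the plus strand (GRCm39) and overlaps Rbks on the opposite strand, which had 204 counts in PBS DCs and 0 in treated DCs.

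Other members higher in treated DCs ranged from abundant to scarce genes. Mrps21, the highest member per length in treated DCs (1338 FPKM), had 3879 counts in PBS DCs, 13902 in treated DCs, 5030 in PBS T cells and 3079 in treated T cells. This is a 6.32-fold difference in DCs (log2 2.66, interval 2.61 to 2.71). Mrpl52, a large-subunit protein specific to mitochondria, had 2733, 8522, 3477 and 1798 counts in the same order, a log2 ratio of 2.46 (2.40 to 2.52) in DCs. Both were highest in treated DCs. Mrpl9, the relative of bacterial L9, had 281, 885, 883 and 967 counts (DC log2 ratio 2.47, 2.28 to 2.67), so that the PBS DC library was the low one. Mrps5, a low member that has a bacterial relative, had 125, 508, 113 and 533 counts. Mrpl42 (log2 ratio 1.81), Mrps14 (1.44) and Mrps33 (1.32), also among the 5 highest per length in treated DCs, were called higher as well.

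The members lowest in treated DCs included 3 at 0 counts there. Mrps35, a small-subunit protein specific to mitochondria, had 1958 counts in PBS DCs, 0 in treated DCs, 1709 in PBS T cells and 1503 in treated T cells. With 0 taken as 3 counts it was 370-fold lower in treated than in PBS DCs (interval up to log2 -8.23). Mrps31, of the same class, had 270, 0, 229 and 227 counts, 51.0-fold lower on that basis (interval up to log2 -5.36). Mrps6, the relative of bacterial S6, had 236, 0, 456 and 299 counts, 44.6-fold lower on that basis (interval up to log2 -5.17). In each case the other 3 libraries held reads and treated DCs alone were at 0. Such zeros were common in that library: of 7856 genes with at least 100 counts in PBS DCs, 942 (12%) were at 0 in treated DCs. Mrps35 spans chr6:146944262-146975489, plus strand, in the files' GRCm39 coordinates.

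Mrps18a, whose protein sits in the large subunit, had 5799 counts in PBS DCs, 37 in treated DCs, 2660 in PBS T cells and 2272 in treated T cells. It was 88.8-fold lower in treated than in PBS DCs (log2 -6.47, interval -6.98 to -6.01). Mrps7, the relative of bacterial S7, had 4943, 59, 3587 and 4227 counts, a DC log2 ratio of -5.57 (-5.97 to -5.20). Treated DCs were again the only low library for both. Mrps18a overlaps Rsph9 on the opposite strand (19 counts in PBS DCs, 298 in treated DCs), and Mrps7 overlaps Gga3 (321 and 57) and Mif4gd (1032 and 174). The sources used here do not state whether counting used strand, so reads in the shared stretches may be split between partners. Of the 77 genes, 24 (31.2%) overlap another listed gene, against 24.7% of all 11986 genes. Without them 20 of 53 members (37.7%) were called lower in treated DCs, in place of 31 of 77 (40.3%), beside 41.8% of all genes.

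By role, members were called in both directions in each of the 4 classes by subunit and origin, beside 30.2% higher and 41.8% lower of all genes. Among large-subunit proteins with a bacterial relative, 5 of 30 were called higher and 8 lower (median log2 ratio 0.14), and among those specific to mitochondria 4 of 20 higher and 9 lower (median -0.85). In the small subunit the counts were 4 higher and 8 lower of 16 with a bacterial relative (median -0.67), and 1 higher and 6 lower of 10 specific to mitochondria (median -1.11). Of the 6 genes listed here for the central protuberance, the crown of the large subunit facing the small subunit, 0 were higher and 4 lower. These are too few to set against those shares. The lower genes were Mrpl46 (-3.07), Mrpl38 (-2.51), Mrpl18 (-1.58) and Mrpl40 (-1.12). The other genes on that list, Mrpl48 (-0.36) and Mrpl27 (0.60), were not called. At the exit of the peptide tunnel 2 of the 6 listed genes were lower: Mrpl45 (-3.84), which tethers the ribosome to the inner membrane, and Mrpl17 (-2.09). Mrpl22 (0.41), Mrpl23 (0.55), Mrpl24 (-0.46) and Mrpl47 (-0.29) were not called.

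In the stalk that recruits translation factors and its base, Mrpl11 was called higher (2.25), while Mrpl10 (0.80), Mrpl12 (-0.95) and Mrpl54 (-0.70) were not called. The paralogues of bacterial S18, which occupy different places in the mitoribosome, differed among themselves in DCs. Mrps18c had 1248 counts in PBS DCs and 3351 in treated DCs (log2 ratio 2.24), Mrps18b had 424 and 93 (-1.37), and Mrps18a had the 5799 and 37 given above. In T cells all 3 paralogues lay between -0.75 and -0.17 and none was called.

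**Figure D3:**
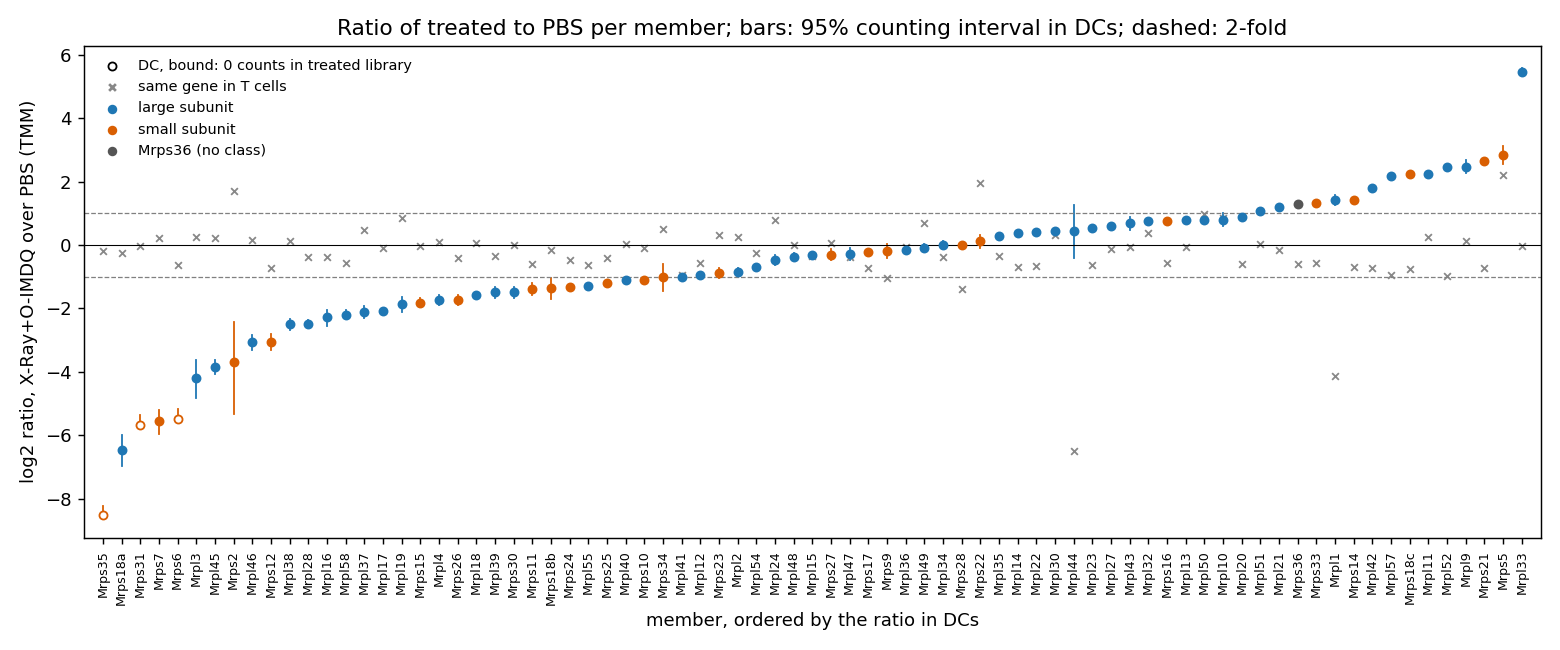
Log2 ratio of X-Ray+O-IMDQ over PBS for each of the 77 genes, ordered by the ratio in DCs; filled points are DCs with their 95% counting interval, open points are bounds for the 3 genes at 0 in treated DCs, crosses are the same gene in T cells (Mrpl44 there is a bound) and dashed lines mark 2-fold. The DC ratios run from -8.53 (Mrps35) to 5.46 (Mrpl33), while 70 of the 77 genes were not called in T cells.

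In T cells few members differed between the libraries. Of the 77, 3 were called higher in the treated library (background 18.3% of 11058 genes) and 4 lower (background 25.4%), so that 9.09% were called in either direction against 43.7% of all genes. The median ratio was -0.17 against -0.07, and the middle 50% spanned 0.72 log2 units against 1.70 for all genes. Among genes with at least 20 counts in both T cell libraries the spans were 0.72 and 1.24. Members are more abundant than most genes, and with at least 100 counts in either library the background was 17.3% higher and 20.4% lower.

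The members higher in treated T cells all encode small-subunit proteins. Mrps5 had 113 counts in PBS T cells and 533 in treated T cells (log2 2.22, interval 1.93 to 2.53). Mrps22, a protein specific to mitochondria, had 72 and 282 (1.96, 1.58 to 2.35), with 474 in PBS DCs and 291 in treated DCs. Mrps2, the relative of bacterial S2, had 205 and 670 (1.70, 1.47 to 1.93). For Mrps22 the PBS T cell library was the low one of the 4.

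Lower in treated T cells was Mrpl44, a large-subunit protein with a ribonuclease III-like fold, which had 268 counts in PBS T cells and 0 in treated T cells. With 0 taken as 3 counts Mrpl44 was 90.1-fold lower (interval up to log2 -6.19). It had 30 and 23 counts in PBS and treated DCs, so that PBS T cells alone held an appreciable number of reads. Mrpl44 overlaps Wdfy1 on the opposite strand, which had 490 and 679 counts in PBS and treated T cells. Of 8606 genes with at least 100 counts in PBS T cells, 342 (3.97%) were at 0 in treated T cells. Mrpl1, of the mobile L1 stalk, had 455 and 26 counts in T cells (log2 -4.14, interval -4.77 to -3.57). Mrps28 had 1976 and 768 (-1.38, -1.50 to -1.26) and Mrps9 had 1204 and 587 (-1.05, -1.19 to -0.91), both small-subunit proteins with a bacterial relative.

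Few members were called in both cell types. Mrps5 alone was higher in both treated libraries (5.41% of the 9388 genes tested in both cell types were), and 0 members were lower in both (9.35% of all genes). Mrpl1 was higher in treated DCs, with 506 and 766 counts, and lower in treated T cells (7.39% of all genes had these calls). Mrps2 was lower in treated DCs, with 114 and 5 counts, and higher in treated T cells (6.74% of all genes). The remaining 13 members higher in DCs and 30 lower in DCs were not called in T cells. Spearman's rho between the DC and the T cell ratios was -0.21 over the 77 members and -0.02 over all genes, a description across genes.

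Between cell types, the PBS libraries were compared with TMM over all 4 libraries. In PBS, 15 members were called higher in DCs than in T cells (background 25.6%) and 3 lower (background 34.8%), with a median log2 ratio of 0.50 against -0.17 for all genes. Scaled by total counts instead, DCs were higher for 6 members and lower for 9 (background 19.1% and 43.8%), and the median was -0.028 against -0.70, so the sign of the member median depends on the scaling. Mrps22 was 7.44-fold higher in PBS DCs than in PBS T cells (474 and 72 counts), while Mrpl44 (30 and 268 counts), Mrpl57 (1425 and 5416) and Mrpl9 (281 and 883) were lower in DCs. Mrpl57 is a large-subunit protein specific to mitochondria. Between the treated libraries 28 members were higher in DCs (background 30.5%) and 19 lower (background 43.9%), with a median of 0.14 against -0.47. Scaled by total counts, 18 were higher and 27 lower (background 24.4% and 50.9%), at a median of -0.46 against -1.07 for all genes.

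Most members have short coding sequences: the median of the longest coding sequence per gene in GENCODE M21 was 588 bases, against 1320 for all genes tested in DCs. Coding length was examined after the ratios had been seen. Across the 77 genes it ran with the ratio in opposite directions in the cell types: Spearman's rho was -0.43 in DCs and 0.44 in T cells, against 0.12 and 0.06 over all genes. Among the 26 members with coding sequences of 261 to 498 bases, 10 were higher and 3 lower in treated DCs, with a median log2 ratio of 0.73. Among the 25 of 501 to 753 bases, 2 were higher and 13 lower (median -1.02). Among the 26 of 756 to 1326 bases, 3 were higher and 15 lower (median -1.49).

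All genes of the shortest range showed 38.9% higher and 30.6% lower in DCs, and those of the middle range 20.1% and 48.1%. Genes of at least 756 bases showed 30.7% and 42.3%. In T cells the member medians over the 3 ranges were -0.59, -0.15 and 0.09, and those of all genes -0.48, -0.13 and 0.03. In both cell types the longest range of all genes ran to 26397 bases, where members ended at 1326, so that pair is not like for like. GC content differed with the DC calls too. Among the 26 members with the highest GC content 1 was higher and 14 lower (median -1.16). Among the 26 with the lowest, 7 were higher and 8 lower (median -0.04). Of all genes tested in DCs 30.2% were higher and 41.8% lower, and the shares of all genes in these GC ranges were not computed. Spearman's rho of GC content with the DC ratio was -0.25 over the members and -0.13 over all 10309 genes compared. With ratios adjusted for coding length and GC content by a straight-line fit over all genes, 24 members (31.2%) were higher and 20 (26%) lower in treated DCs, where 32.5% and 38.7% of all genes were. The median turned to 0.12, against -0.13 for all genes. The member shares set against all genes thus differed with this correction. The line was fitted to all genes, whose rho with coding length in DCs was 0.12 where that of the members was -0.43. It was not fitted to the members' own trend with length, and whether that trend remained was not tested.

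**Figure D4:**
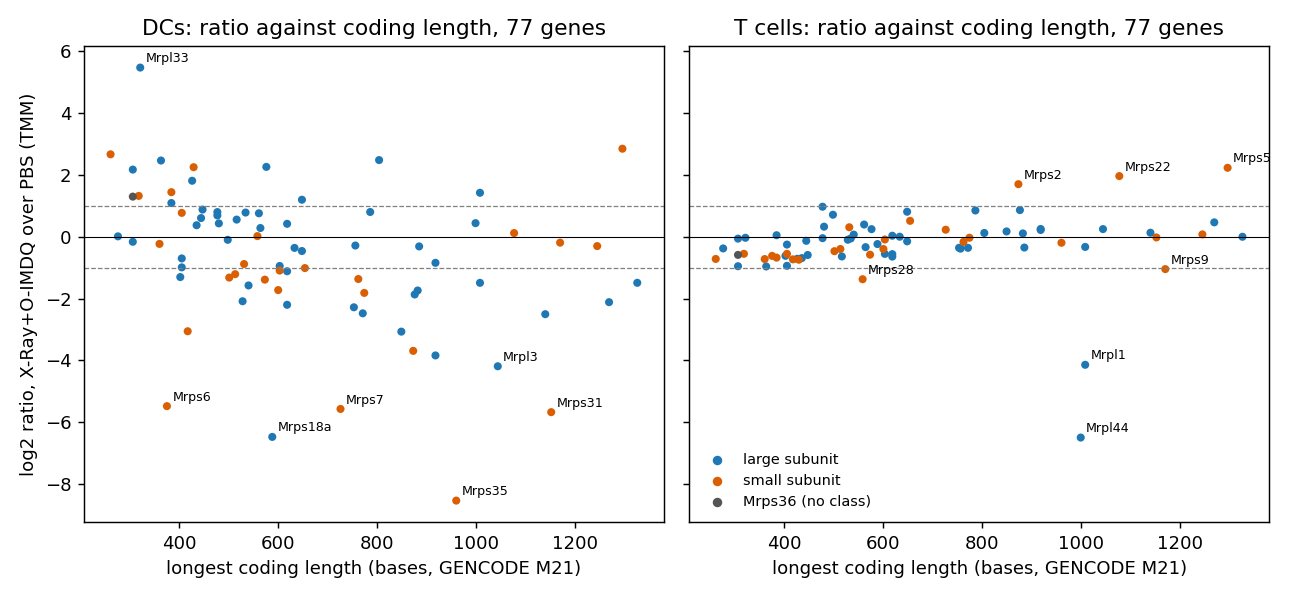
Log2 ratio of X-Ray+O-IMDQ over PBS against the longest coding length of each of the 77 genes in bases (GENCODE M21), for DCs (left) and T cells (right); points are coloured by subunit, genes at 0 in the treated library are drawn at their bound and dashed lines mark 2-fold. Ratios in DCs lean downward with length (rho -0.43) and those in T cells lean upward (rho 0.44).

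RefSeq promoter windows (GRCm38.p6, 250 bases before to 50 after the start) were found for 68 of the 77 genes, as 74 windows, and were searched on both strands. The ETS motif CCGGAAG, of the family that includes the GABP factors known to act on mitochondrial genes, lay in 33.8% of member windows and 8.86% of all 32851 windows. The YY1 motif AAGATGGC lay in 16.2% against 2.75%, and the NRF1 core GCATGCGC in 10.8% against 2.71%. The GC box GGGCGG lay in 52.7% against 35.7%, CCAAT in 39.2% against 37.4%, the E-box CACGTG in 9.46% against 7.15% and TATAAA in 6.76% against 13.6%. Of the windows of members higher in treated DCs, 53.3% of 15 held the ETS motif, and of those lower 30.8% of 26 did. YY1 and CCAAT went the other way, with 6.67% and 26.7% of the windows of higher members and 23.1% and 50% of those of lower members. These shares were not tested. The full set of windows covers 27025 genes whether or not they had reads here, unlike the backgrounds above, so the member shares were not set against measured genes alone. A match describes letters and not a bound site. A few windows are shown, 5′ to 3′ on the gene's strand: Mrpl33, the highest by ratio in treated DCs, Mrps21, the highest per length there, Mrps5, called higher in both cell types, and Mrps18a, the lowest by ratio of the members not at 0 there. Capitals mark matches to the ETS motif (CCGGAAG, or CTTCCGG where it lies on the other strand), to the NRF1 core in Mrpl33 (read there on the other strand) and to the YY1 motif in Mrps18a. Mrps5 has no match to these 3 motifs and so no capitals, as is the case for the ETS motif in most member windows. The windows are chr5:31613701-31614000 (plus strand) for Mrpl33, chr3:95871465-95871764 (minus strand) for Mrps21, chr2:127587176-127587475 (plus strand) for Mrps5 and chr17:46110754-46111053 (plus strand) for Mrps18a, all in GRCm38.p6 and not comparable with the GRCm39 positions above.
Mrpl33: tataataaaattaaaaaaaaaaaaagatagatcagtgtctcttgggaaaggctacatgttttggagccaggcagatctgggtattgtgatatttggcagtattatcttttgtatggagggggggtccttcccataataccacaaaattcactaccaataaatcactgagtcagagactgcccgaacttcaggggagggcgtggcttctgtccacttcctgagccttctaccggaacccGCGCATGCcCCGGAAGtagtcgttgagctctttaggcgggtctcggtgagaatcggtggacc
Mrps21: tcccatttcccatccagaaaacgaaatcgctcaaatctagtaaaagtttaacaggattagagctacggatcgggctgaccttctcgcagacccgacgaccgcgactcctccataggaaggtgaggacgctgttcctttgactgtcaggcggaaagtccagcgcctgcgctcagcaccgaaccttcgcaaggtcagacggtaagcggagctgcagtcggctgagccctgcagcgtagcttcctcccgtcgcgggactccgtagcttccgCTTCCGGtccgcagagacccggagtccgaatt
Mrps5: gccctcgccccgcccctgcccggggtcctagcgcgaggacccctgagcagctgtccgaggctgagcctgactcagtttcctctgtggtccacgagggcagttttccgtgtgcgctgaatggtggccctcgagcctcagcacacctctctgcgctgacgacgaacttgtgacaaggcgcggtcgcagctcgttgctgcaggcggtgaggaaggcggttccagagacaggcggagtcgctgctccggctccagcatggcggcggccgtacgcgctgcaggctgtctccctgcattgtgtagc
Mrps18a: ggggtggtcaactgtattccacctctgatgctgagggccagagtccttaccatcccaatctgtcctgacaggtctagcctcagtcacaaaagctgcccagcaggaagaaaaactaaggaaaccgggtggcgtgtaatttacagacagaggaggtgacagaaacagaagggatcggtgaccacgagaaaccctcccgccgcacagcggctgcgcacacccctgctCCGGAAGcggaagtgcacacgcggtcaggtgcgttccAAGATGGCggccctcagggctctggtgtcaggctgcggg

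Mrpl33 and Mrps18a both carry the ETS motif in these windows while lying at opposite ends of the DC ratios, as given above. Members also often start beside another gene read in the opposite direction: 19 of 77 (24.7%) have such a partner within 1000 bases, against 11.1% of all genes. In DCs 14 of these pairs had both genes measured, and in 3 both were called in the same direction and in 2 in opposite directions. Mrps12, the relative of bacterial S12 at the decoding centre, starts 172 bases from Sars2, the mitochondrial seryl-tRNA synthetase. Mrps12 had 2204 and 150 counts in PBS and treated DCs, and Sars2 had 208 and 9. Mrps18c and Helq were both higher, and Mrpl37 and Cyb5rl both lower. Mrpl51 with Ncapd2 and Mrps18b with Ppp1r10 had opposite calls. In T cells 16 pairs were measured, with 0 in either kind, but only 9.09% of members were called there at all. The shares of such pairs over all genes were not computed.

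The other genes of mitochondrial translation are given for comparison. Of all genes tested, 30.2% were higher and 41.8% lower in treated DCs, and 18.3% and 25.4% in treated T cells. Of the 5 mitoribosome subunits without an Mrp symbol, 2 were higher in treated DCs, Gadd45gip1 (34 and 404 counts) and Chchd1 (2720 and 3857), and 2 lower, Aurkaip1 (7971 and 660) and Ptcd3 (462 and 76). In treated T cells Dap3, the GTP-binding protein of the small subunit, was lower (1911 and 734 counts), as was Gadd45gip1 (55 and 26). Of the translation factors 1 of 11 was higher in treated DCs and 7 lower, and 6 of 12 were higher in treated T cells and 3 lower. Mtif2, the initiation factor, was higher in both (log2 ratio 2.97 in DCs and 2.07 in T cells). Tufm, the elongation factor that delivers aminoacyl-tRNA, was at -0.59 in DCs, not called, and higher in T cells (1.20). Its exchange factor Tsfm was lower in DCs (967 and 4 counts).

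Of mitoribosome assembly and rRNA modification genes, 2 of 24 were higher and 13 lower in treated DCs (8.33% and 54.2%). In treated T cells 6 of 27 were higher and 8 lower (22.2% and 29.6%). For these and the lists that follow, the shares of all genes were 30.2% and 41.8% in DCs. In T cells they were 18.3% and 25.4%. Of mitochondrial aminoacyl-tRNA synthetases, 2 of 19 were higher and 12 lower in DCs, and 7 of 21 higher and 5 lower in T cells. Lars2, the leucyl enzyme, was higher in treated DCs (log2 1.38) and at -0.77 in T cells. For transcription and RNA stability the counts were 7 higher and 9 lower of 18 in DCs, among them Tfam, the packaging and transcription factor of mitochondrial DNA (10 and 316 counts), and 3 higher and 8 lower of 18 in T cells. Among the transcriptional regulators of mitochondrial genes, 1 of 7 was higher and 3 were lower in DCs, including Myc (-1.67) and Nrf1 (-1.75), and 2 of 8 were higher and 0 lower in T cells.

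The mRNAs that the mitoribosome reads, and the proteins of the cytosolic ribosome gave other values. All 12 measured mitochondrially encoded protein genes were called higher in treated DCs (median log2 ratio 3.21), where members had a median of -0.32. In T cells 0 of 10 were higher and 1 was lower (median -0.44). Of the cytosolic ribosomal protein genes, 50 of 80 (62.5%) were higher and 2 (2.5%) lower in treated DCs (median 1.78). In treated T cells 1 of 82 (1.22%) was higher and 21 (25.6%) lower (median -0.75). Of all genes, 30.2% were higher and 41.8% lower in treated DCs, and 18.3% and 25.4% in treated T cells. These lists are described by their counts and medians, and the difference from the members was not tested.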

How the data were processed

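Bulk RNA libraries of tumour DCs and T cells were made and sequenced by BGI, per the labels. Tools in the submitters' processing notes are RSEM 1.2.12, HISAT2 2.0.4, R 3.3.1 and DESeq2 1.24.0, with build GRCm39; the role of each tool was not given in the sources. The authors deposited whole-number read counts per gene and FPKM; every FPKM was recovered from count, gene length and library total within a relative difference of 2.04e-07.

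Columns were tied to samples through the number of the read file in each description. The titles number the samples differently (2 for PBS where the description has 1, and 1 for treated DCs where it has 4). A further 4 columns, of 2 libraries matched to no sample, were not used: each table has 1 more library named like its PBS column but numbered 2, the number in the PBS titles. Which of the libraries the title means could not be settled, and the spread between PBS libraries was not analysed here. The 51 genes without a symbol stayed out of the comparisons.

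Counts were scaled by TMM (edgeR 4.0.16, R 4.3.3) within each cell type, or over all 4 libraries between cell types. Genes with at least 20 counts in either library entered. A count of 0 was set to 3 counts, which corresponds to 0.126 and 0.213 CPM in PBS and treated DCs and 0.161 and 0.162 CPM in PBS and treated T cells. With 1 matched library per group no replicate test was made. The ratio method was run on simulated counts with known fold changes. These held counting error alone, so that run says nothing of the spread between libraries. Alternatives were other scalings (total counts, upper quartile, DESeq2 1.42.0 size factors, FPKM with a pseudocount of 0.1), count filters, log2(CPM + 1) and other fold thresholds. Coding length came from GENCODE M21, and GC content was matched by gene identifier for 99.5% of listed genes.

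The members and gene lists were chosen with earlier results of these data known. Named genes were the 5 highest and 5 lowest per cell type by the interval bound nearer 0 (at least 100 counts in the higher library), the 4 most abundant per subunit, members at 0 in 1 library only, members called in both cell types, the members of the structural lists, and the 3 most abundant of each other list. Not all of these are printed, and marker genes named singly, the neighbouring genes, the members named beside them and the promoters shown were picked after their values were seen, as were the coding length, GC content, overlap and promoter comparisons.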

Additional observations from a re-analysis of the deposited data

Results flagged for a closer look

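Mrpl1 and Mrps2 were called in opposite directions in the DC and T cell comparisons. For Mrpl1, the log2 ratio of treated over PBS in DCs minus that in T cells was 5.56. It had 506 counts in PBS DCs, 766 in treated DCs, 455 in PBS T cells and 26 in treated T cells. For Mrps2 the difference was -5.39, with 114, 5, 205 and 670 counts in the same order. Neither difference was tested, since each group has 1 matched library.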

How the results depend on the processing

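No paired analysis was possible because each group has 1 matched library and the groups compared share fewer than 2 replicate numbers. Leaving out a replicate was not possible either. At 1.5-fold, members higher and lower numbered 23 and 36 in treated DCs (36% and 46.7% of all genes), 8 and 20 in treated T cells (27.1% and 33.7%), and 37 and 7 in PBS DCs over T cells (33.2% and 41.5%). At 4-fold these were 8 and 16 (18.6% and 31.9%), 1 and 2 (9.07% and 16%), and 1 and 1 (15.4% and 23.3%), and 12 members were higher in treated DCs over treated T cells (21.2%). Upper-quartile scaling gave 7 members lower in treated T cells (27.1% of all genes). Total-count CPM and the deposited FPKM each gave 6 higher and 9 lower in PBS DCs over T cells (19.1% and 43.8% of all genes by CPM, 18.4% and 43% by FPKM), with a median log2 ratio of -0.028, and 18 higher in treated DCs over T cells (24.4% and 24%), with medians of -0.46 in both. In that FPKM ratio 0.1 was added.

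Added after seeing the data, correction for coding length and GC content used a line fitted over all genes. It gave 24 higher and 20 lower members in treated DCs (32.5% and 38.7% of all genes, median 0.12). In treated T cells it gave 8 higher (23.2% of all genes, median 0.11 against 0.19 for all genes). Both medians changed sign, as did Mrps24 in DCs (0.12), and the corrected median of all genes in DCs was -0.13. Without members that overlap another listed gene, 20 of 53 (37.7%) were lower in treated DCs, beside 41.8% of all genes. In PBS DCs over T cells 1 (1.89%) was lower, beside 34.8% of all genes. For single named genes in DCs, 555 of 582 values kept their call (higher, lower or neither). Of the others 14 lost a call, 12 gained one in the same direction, and 1 changed sign along with its call. In T cells these were 560 of 586, 5, 21 and 0. The sign of genes that stayed uncalled was not compared. Depth limits the low members: a count of 0 is set to 3 counts, and Mrps2 in treated DCs rests on 5.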
